A study of Mus musculus with 6 samples.

Results

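The semaphorins, plexins and neuropilins were followed in the embryonic mouse bladder after deletion of Klf5, a zinc-finger transcription factor of epithelia. The members were chosen by gene symbol, as every gene with a single symbol in the array annotation that is named Sema, Plxn or Nrp with a class number or letter. They numbered 31 of the 19938 genes tested: 20 semaphorins, 9 plexins and 2 neuropilins. Where a gene had several array features, the feature was selected on the highest mean level over all 6 arrays, a value that does not involve the comparison of genotypes. This applied to 2 genes, Sema4d and Sema6b.

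RNA came from whole bladders of embryos at E14.5, with 3 samples per genotype and 2 bladders pooled in each sample. Each pool was read on its own Affymetrix Mouse Gene 1.0 ST array. The Klf5-deleted embryos are labelled Klf5 ∆/∆. The controls are labelled Klf5+/+ShhGfpCre+: they have intact Klf5 alleles and carry ShhGfpCre, in which the Shh locus drives a fusion of GFP and Cre recombinase, active among others in the bladder epithelium. The labels give the Cre allele for the controls; for the deleted group they give the deletion alone, and they name no strain or sex. The source label reads bladder urothelium while the protocol describes whole bladders, and markers of the muscle coat were read on every array: the smooth muscle list averaged 11.81 to 12.01 on Klf5-deleted and 12.04 to 12.33 on control arrays, on the log2 scale. Whether the pools represent different litters is not stated, so p-values measure only the spread between these pools.

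Semaphorins are secreted or membrane-bound guidance cues that steer axons, vessels and epithelial sheets. Plexins are their signalling receptors, whose intracellular part acts on small GTPases. Most secreted class 3 semaphorins first bind a neuropilin, which lacks a signalling domain of its own and pairs with an A-type plexin; the membrane-bound classes bind plexins directly. Neuropilins also bind vascular endothelial growth factors. In the fetal bladder such cues can reach the urothelium, the muscle coat, vessels and ingrowing pelvic nerves.

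In the Klf5-deleted bladders 2 ligand genes fell and no member rose. They were Sema4a, a membrane-bound class 4 semaphorin known for its roles in immune cells and vessels, and Sema3f, a secreted class 3 semaphorin that acts through neuropilin 2 and repels axons and endothelial cells. These 2 of 31 members passed an adjusted p of 0.05 by limma, or 6.45% of the family, where 1.98% of all genes tested passed (1.59% lower and 0.386% higher). No plexin and no neuropilin passed. The 3 Klf5-deleted arrays lay wholly above or below the 3 control arrays for 7 members, or 22.6%, beside 20.5% of all genes; 5 were lower (all genes 11.8%) and 2 higher (all genes 8.67%). At an unadjusted p under 0.05 there were 8 members, or 25.8%, beside 14.4% of all genes. The median difference over the 31 members was 0.0072 on the log2 scale, with 14 members lower and 17 higher. Over all 19938 genes it was -0.00993, with 10674 lower and 9264 higher. The semaphorins had a median of -0.10 with 12 of 20 lower, and the 11 receptor genes a median of 0.0459 with 9 of 11 higher. Centring each array on the median level of 8 housekeeping genes added 0.086 to every difference. It moved these medians to -0.0139 (11 of 20 lower) and 0.132 (10 of 11 higher), beside 0.0762 for all genes (14804 of 19938 higher). Before centring, the 8 housekeeping genes themselves had a median difference of -0.00175, with 4 lower and 4 higher. Of all calls, 80.5% were lower as reported, 61.0% with that centring and 70.2% with arrays centred on their own median.

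**Figure D1:**
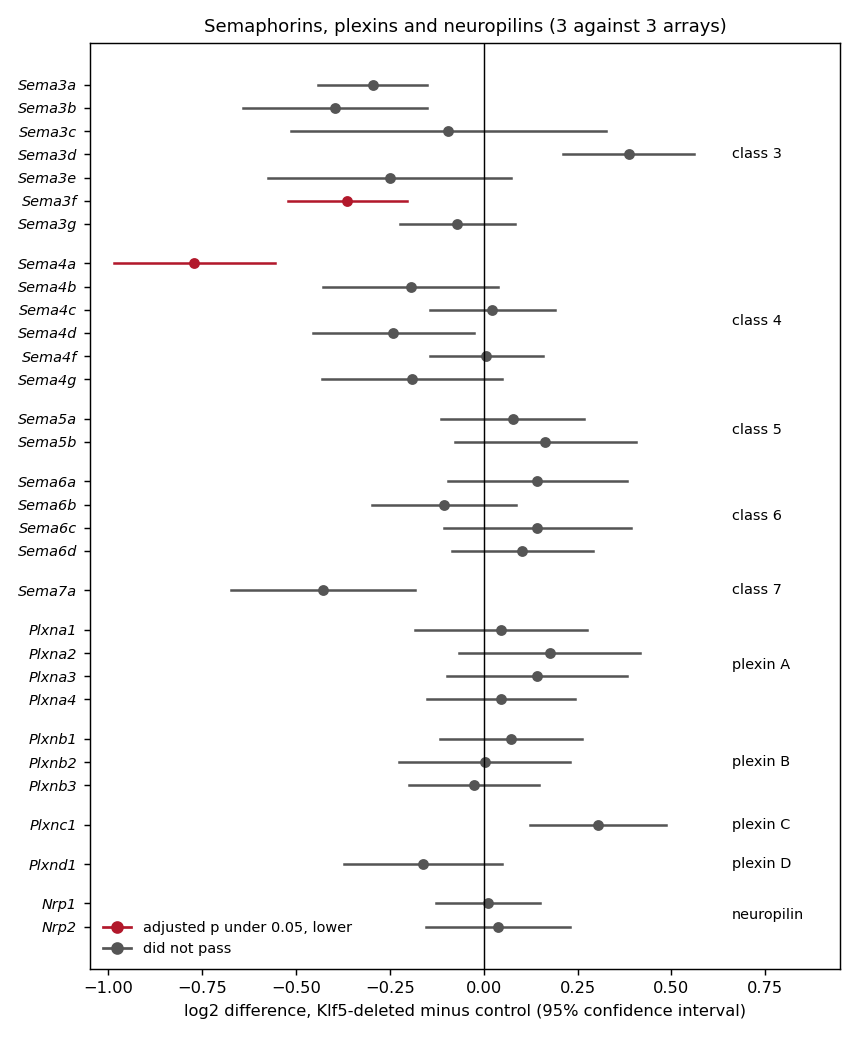
Log2 difference (Klf5-deleted minus control) of each of the 31 genes with its 95% confidence interval by limma, ordered by class; 3 arrays per group. The red points, Sema4a at -0.77 and Sema3f at -0.36, passed an adjusted p of 0.05; the plexin A, plexin B and neuropilin intervals all include 0.

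Klf5 and most epithelial markers were lower in the same pools. Klf5 itself read 10.12, 10.34 and 10.23 in Klf5-deleted and 10.84, 10.63 and 10.97 in control pools (log2 difference -0.59, SE 0.10, adjusted p = 0.0381 by limma); with 1 array left out it passed only without control 2, and the adjusted p was otherwise 0.0847 to 0.156. The Klf5 call was also lost with arrays centred on their own median (adjusted p = 0.061 by limma) and with the replicate number as a block (0.137). Of 16 epithelial markers, 12 fell, or 75.0%, beside 1.59% of all genes, and none rose. Among the 12 were Prom2, which fell by 1.95, Spint1, a protease inhibitor, which fell by 1.88, and Ehf, an epithelial ETS factor, which fell by 1.87. The keratin gene Krt8 fell by 1.77. The other 4 differed by -0.44 to -0.10. The mean level of the list was 8.92 to 9.18 on Klf5-deleted arrays and 10.15 to 10.44 on control arrays; array levels have no zero, so absence of a marker could not be read. In whole bladders, fewer cells of a type and less RNA per cell cannot be told apart. Of the marker lists for other cells, only smooth muscle had a gene past the threshold (Synpo2, which fell by 0.38, or 1 of 10, and which passed in no fit with 1 array left out). In that list 7 of 10 genes had an unadjusted p under 0.05, or 70.0%, beside 14.4% of all genes. The groups did not overlap for 7 of 10, or 70.0%, beside 20.5% of all genes. Of these markers 10 of 10 were lower (8 of 10 with housekeeping centring and 9 of 10 with array median centring), with a median difference of -0.298. None of 12 endothelial, 12 neuronal and glial, 10 mesenchymal, 10 leukocyte, 12 skeletal muscle and 7 placental markers passed. In the same order, 5, 1, 2, 1, 7 and 1 had an unadjusted p under 0.05 (all genes 14.4%). The groups did not overlap for 6, 1, 2, 1, 3 and 1 of them (all genes 20.5%). The endothelial markers were lower in 12 of 12 (8 with housekeeping and 10 with array median centring), with a median of -0.195, and the skeletal muscle markers higher in 12 of 12 under all 3 scalings, with a median of 0.717. The endothelial markers averaged 10.03 to 10.30 on Klf5-deleted and 10.25 to 10.41 on control arrays. The neuronal and glial markers averaged 8.58 to 8.94 on Klf5-deleted arrays and 8.48, 9.13 and 8.31 on controls 1, 2 and 3. Control 2 was the highest control for 11 of 12 neuronal and glial, 9 of 10 leukocyte and 12 of 12 skeletal muscle markers. It was so for 1 of 12 endothelial, 1 of 10 smooth muscle and 1 of 10 mesenchymal markers, and for 5447 of all 19938 genes. The placental list averaged 9.43 on control 2, 8.35 on Klf5-deleted 2 and 5.80 to 7.28 on the other arrays. What part these cell types have in the differences of the semaphorin genes was not tested.

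The class 4 ligand Sema4a showed the largest difference of the family and was 1.71-fold lower. It read 7.87, 7.85 and 7.94 on the 3 Klf5-deleted arrays and 8.85, 8.56 and 8.57 on the 3 control arrays. All control values stood above all Klf5-deleted values by a wide gap, and control 1 was the highest. The group levels were 7.89 ± 0.05 (SD, n = 3) and 8.66 ± 0.16 (SD, n = 3). The log2 difference was -0.77 (SE 0.09, 95% confidence interval -0.98 to -0.56, adjusted p = 0.00844 by limma), with 3 of 3 Klf5-deleted pools below every control pool. Leaving out 1 array gave differences of -0.82 to -0.68; the adjusted p by limma was 0.0507 without Klf5-deleted 1 and between 0.01 and 0.0487 without any of the other arrays. Sema4a had a mean level of 8.27, a little below the median of all genes at 8.45, and was 1 of 8 members below it. RMA is known to compress differences at low levels, and whether it did so here was not tested.

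The class 3 ligand Sema3f was 1.29-fold lower. It read 10.28, 10.16 and 10.26 on Klf5-deleted and 10.53, 10.63 and 10.63 on control arrays. The groups lay close together but did not overlap, and each had a small spread. At 10.23 ± 0.07 (SD, n = 3) against 10.60 ± 0.06 (SD, n = 3), Sema3f differed by -0.36 (SE 0.07, 95% confidence interval -0.52 to -0.20, adjusted p = 0.046 by limma). This call did not hold in the fits that left out any 1 of the 6 arrays, where the adjusted p by limma was 0.0933 to 0.138 and the difference -0.40 to -0.33. It was also lost with arrays centred on the housekeeping median (difference -0.28, adjusted p = 0.176) or on their own median (-0.32, adjusted p = 0.0694).

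**Figure D2:**
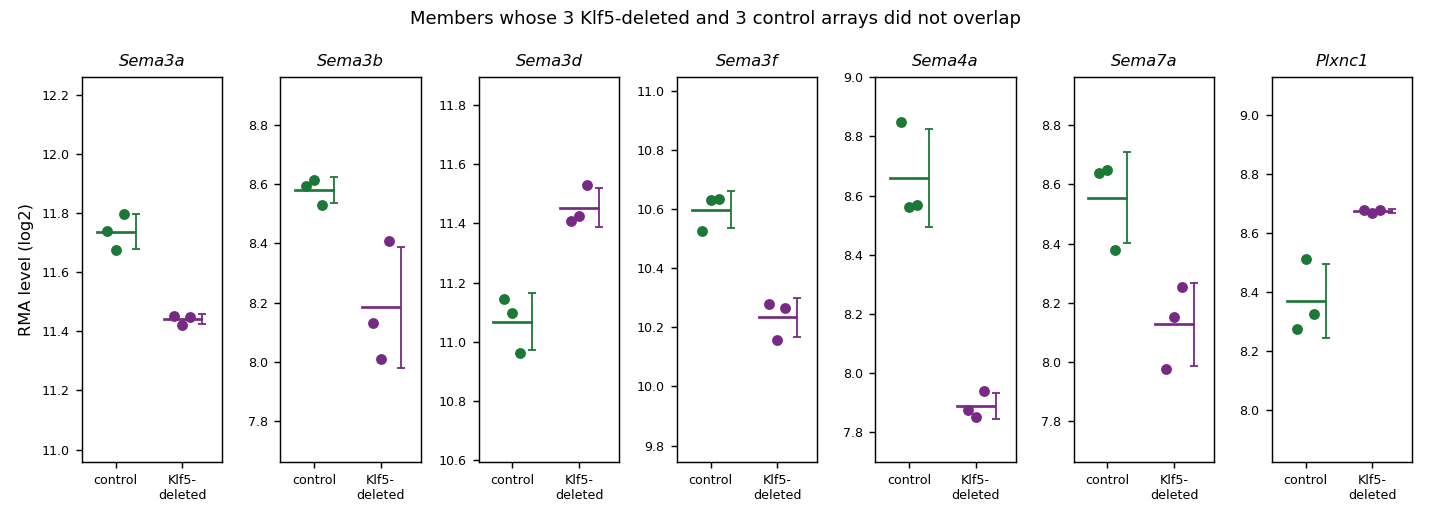
Log2 levels by array for the 7 members whose groups did not overlap; points are pools, horizontal lines group means and bars the SD of 3 arrays, and each panel spans the same log2 range. Sema4a shows the widest gap (8.66 against 7.89), and Sema3d and Plxnc1 are the members with higher Klf5-deleted values.

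The upstream sequence of 4 of these ligand genes is given for its Krüppel-like factor letters. RefSeq windows (GRCm38.p6) were matched by Entrez identifier for 26 of the 31 members; Sema3f, Sema3b, Sema6a, Plxna1 and Plxna4 had no entry. The 250 bases before the start are shown for Sema4a, the gene with the largest fall (the most upstream of its 4 starts), for Sema7a, a ligand with lower readings whose groups did not overlap, and for Sema3a and Sema3d, class 3 ligands with differences of opposite sign. Capitals mark CACCC and CCGCCC on either strand, letters found in the CACCC and GC boxes that Krüppel-like factors are known to bind.
Sema4a (chr3:88461183-88461432, minus strand): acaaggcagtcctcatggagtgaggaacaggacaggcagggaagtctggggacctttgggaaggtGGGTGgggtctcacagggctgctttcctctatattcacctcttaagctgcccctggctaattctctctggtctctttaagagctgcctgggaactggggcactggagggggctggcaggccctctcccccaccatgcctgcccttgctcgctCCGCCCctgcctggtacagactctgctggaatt
Sema7a (chr9:57939862-57940111, plus strand): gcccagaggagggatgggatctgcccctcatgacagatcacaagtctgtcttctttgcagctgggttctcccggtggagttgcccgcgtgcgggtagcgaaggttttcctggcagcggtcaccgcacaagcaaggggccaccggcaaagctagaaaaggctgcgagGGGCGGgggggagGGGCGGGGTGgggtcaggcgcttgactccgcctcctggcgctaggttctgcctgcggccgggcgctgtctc
Sema3a (chr5:13396534-13396783, plus strand): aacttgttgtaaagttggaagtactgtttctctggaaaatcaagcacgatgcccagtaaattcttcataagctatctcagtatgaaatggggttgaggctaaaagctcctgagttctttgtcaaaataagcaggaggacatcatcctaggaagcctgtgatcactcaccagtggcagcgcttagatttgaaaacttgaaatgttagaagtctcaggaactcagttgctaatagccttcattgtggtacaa
Sema3d (chr5:12382916-12383165, plus strand): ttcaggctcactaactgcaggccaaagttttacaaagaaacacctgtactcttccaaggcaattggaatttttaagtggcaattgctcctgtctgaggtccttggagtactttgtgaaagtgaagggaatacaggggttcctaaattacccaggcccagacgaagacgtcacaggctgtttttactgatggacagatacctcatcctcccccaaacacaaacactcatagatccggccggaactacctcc
The Sema4a window held 1 CACCC and 1 CCGCCC, and the Sema7a window 1 CACCC and 2 CCGCCC, of which the CACCC match shares a base with a CCGCCC match on the same strand. The other 3 Sema4a windows, of which 2 overlap, held 3, 2 and 1 CACCC and 0, 1 and 2 CCGCCC. The Sema3a and Sema3d windows held neither. Among the windows not shown, that of Plxnc1, a higher member whose groups did not overlap, held 1 CACCC and 4 CCGCCC. The window of Nrp2, which differed by 0.04, held 3 and 5, and that of Sema4f, which differed by 0.01, held neither sequence. Both are frequent sequences: CACCC occurred in 52.0% and CCGCCC in 32.7% of all 32851 windows, in 55.4% and 45.6% of the windows of tested genes, and in 78.4% and 73.0% of the 37 member windows. A match describes the letters of the window and is no evidence of binding.

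Among the 7 class 3 semaphorins, the secreted ligands that mostly act through neuropilins, 6 were lower and Sema3d was higher in Klf5-deleted bladders. The median difference was -0.251. Only Sema3f fell past the threshold, or 14.3% of the 7, where 1.59% of all genes fell. With arrays centred on housekeeping genes 5 were lower, as Sema3g turned to 0.02. For 4 of the 7, or 57.1%, the groups did not overlap, beside 20.5% of all genes: Sema3f, Sema3a, Sema3b and Sema3d.

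Sema3d, a ligand with roles in the outflow tract and pulmonary veins, was 1.31-fold higher and just missed the threshold. It read 11.41, 11.42 and 11.53 on Klf5-deleted and 11.15, 11.10 and 10.96 on control arrays. Every Klf5-deleted array was above every control array, with a log2 difference of 0.39 (SE 0.07, 95% confidence interval 0.21 to 0.56, adjusted p = 0.0526 by limma). The adjusted p fell to 0.0406 with an intensity trend in limma's prior, 0.0213 and 0.0327 with arrays centred on the housekeeping or array median and 0.0431 without dim genes, and it was 0.0979 to 0.151 in the fits that left out 1 array. Sema3a, the best known axon repellent of the class and a ligand of neuropilin 1, differed the other way. It read 11.45, 11.42 and 11.45 on Klf5-deleted and 11.74, 11.68 and 11.80 on control arrays, so the Klf5-deleted pools were nearly equal and all below the controls. The log2 difference was -0.30 (SE 0.06, 95% confidence interval -0.44 to -0.15, adjusted p = 0.0682 by limma) and passed with an intensity trend (adjusted p = 0.0442). It passed in no other alternative fit, where the adjusted p by limma was 0.0619 to 0.225. With arrays centred on the housekeeping median the difference was -0.21.

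Sema3b, also a secreted neuropilin ligand, read 8.13, 8.01 and 8.41 on Klf5-deleted and 8.59, 8.61 and 8.53 on control arrays. The controls were close together and Klf5-deleted 3 stood nearest to them. Sema3b was lower, at -0.40 (SE 0.11, adjusted p = 0.134 by limma). Without Klf5-deleted 3 it was -0.51 with an adjusted p of 0.0448 by limma. It passed in no other alternative fit, where the adjusted p by limma was 0.133 to 0.361. Sema3e, which binds plexin D1 without a neuropilin, read 7.79, 7.44 and 7.90 on Klf5-deleted and 7.82, 8.16 and 7.90 on control arrays. Klf5-deleted 2 was the lowest and control 2 the highest, and the groups overlapped (log2 difference -0.25, 95% confidence interval -0.57 to 0.07). Sema3c, a ligand of both neuropilins, had the widest spread within a group of any member: 9.83, 10.02 and 10.60 on Klf5-deleted arrays against 10.21, 10.28 and 10.25 on control arrays. Klf5-deleted 3 lay above all controls and the other two below them. The skeletal muscle markers also averaged highest on that array (9.97, against 8.92 and 9.26 on the other Klf5-deleted and 8.29 to 9.16 on the control arrays). Within the Klf5-deleted group the smooth muscle (12.01), mesenchymal (12.69), neuronal and glial (8.94) and leukocyte (8.86) lists were highest there too. The epithelial, endothelial and placental lists were highest on Klf5-deleted 2. The part of any of these cell types in the Sema3c reading was not tested. The difference was -0.09 (95% confidence interval -0.51 to 0.32) and moved to -0.32 without Klf5-deleted 3 (adjusted p = 0.173 by limma) and to 0.07 without Klf5-deleted 1. Sema3g, a ligand of arterial endothelium, ranged from 7.70 to 7.82 on Klf5-deleted and 7.77 to 7.85 on control arrays, with a difference of -0.07.

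Beside Sema4a, the 5 other class 4 semaphorins, membrane-bound ligands mainly of B-type plexins, did not pass the threshold. Sema4d, the ligand of plexin B1, read 8.42, 8.36 and 8.28 on Klf5-deleted and 8.42, 8.71 and 8.64 on control arrays. Only control 1, at the level of Klf5-deleted 1, kept the groups from standing apart (log2 difference -0.24, SE 0.09, unadjusted p = 0.032, adjusted p = 0.29 by limma). The second Sema4d feature, which was dimmer with a mean level of 7.50 against 8.47, differed by -0.07. Sema4b differed by -0.19 (95% confidence interval -0.43 to 0.04) and Sema4g, a ligand of plexin B2, by -0.19 (-0.43 to 0.05). Both had overlapping groups, at 9.86 to 10.10 against 9.99 to 10.27 for Sema4b and 8.68 to 8.94 against 8.84 to 9.14 for Sema4g. Sema4c, the other plexin B2 ligand, and Sema4f differed by 0.02 (-0.14 to 0.19) and 0.01 (-0.14 to 0.16).

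The class 5 and class 6 semaphorins, whose members carry thrombospondin repeats (class 5) or bind A-type plexins (class 6), had no gene past the threshold and none with an unadjusted p under 0.05. Sema5a read 12.24, 12.09 and 12.31 on Klf5-deleted and 12.06, 12.12 and 12.22 on control arrays, and the groups overlapped with a difference of 0.08 (95% confidence interval -0.11 to 0.27). Sema5b differed by 0.16 (-0.08 to 0.40), with Klf5-deleted 3 the highest at 8.30. In class 6 Sema6a, Sema6c and Sema6d were higher by 0.14, 0.14 and 0.10 and Sema6b lower by 0.11, none beyond the spread: the confidence intervals reached from -0.10 to 0.38 for Sema6a, -0.11 to 0.39 for Sema6c, -0.08 to 0.29 for Sema6d and -0.30 to 0.09 for Sema6b. Sema6a was raised on Klf5-deleted 3 alone (10.83, against 10.50 on both other Klf5-deleted arrays), and Sema6d on Klf5-deleted 1 alone (10.53, against 10.31 on both others). The 2 features of Sema6b held equal values on all 6 arrays and count as 1 measurement.

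Sema7a, a semaphorin held at the membrane by a lipid anchor that signals through plexin C1 and beta-1 integrin, was 1.35-fold lower without passing the threshold. It read 7.98, 8.15 and 8.25 on Klf5-deleted and 8.64, 8.65 and 8.38 on control arrays. The groups did not overlap, with Klf5-deleted 3 and control 3 nearest to each other, and the log2 difference was -0.43 (SE 0.10, 95% confidence interval -0.67 to -0.18, adjusted p = 0.107 by limma). Its receptor gene Plxnc1 was 1.23-fold higher. Plxnc1 read 8.68, 8.67 and 8.68 on Klf5-deleted and 8.27, 8.51 and 8.33 on control arrays, which placed the 3 nearly equal Klf5-deleted pools above every control. The log2 difference was 0.30 (SE 0.08, 95% confidence interval 0.12 to 0.48, adjusted p = 0.121 by limma), and neither gene passed in any of the alternative fits, where the adjusted p was at least 0.0837 for Sema7a and at least 0.0618 for Plxnc1. Integrin beta-1, Itgb1, differed by -0.05. Another integrin gene, Itga1, differed by -0.21 without overlap of the groups (adjusted p = 0.31 by limma).

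The remaining receptor genes also missed the threshold. Nrp1, the receptor of Sema3a and of vascular endothelial growth factor, read 10.60, 10.68 and 10.69 on Klf5-deleted and 10.65, 10.65 and 10.64 on control arrays. The controls were almost identical, and the difference of 0.01 had a 95% confidence interval of -0.13 to 0.15. Nrp2, the receptor of Sema3f, read 12.65, 12.38 and 12.57 on Klf5-deleted and 12.52, 12.46 and 12.52 on control arrays, with a difference of 0.04 (-0.15 to 0.23). The intervals bound a change of either neuropilin to less than the difference measured for Sema4a. The 4 A-type plexins, which transmit class 3 and class 6 signals, were all higher by small amounts: Plxna2 by 0.18 (-0.06 to 0.42), Plxna3 by 0.14 (-0.10 to 0.38), and Plxna1 and Plxna4 by 0.05 each (-0.18 to 0.28 and -0.15 to 0.24). None passed the test, and the direction of Plxna1 and Plxna4 turned without Klf5-deleted 1. Of the B-type plexins, receptors of class 4, Plxnb1 differed by 0.07 (-0.12 to 0.26), Plxnb2 by 0.00 (-0.22 to 0.23) and Plxnb3 by -0.03 (-0.20 to 0.15). Plxnd1, the endothelial receptor of Sema3e, read 11.54, 11.45 and 11.27 on Klf5-deleted and 11.60, 11.48 and 11.66 on control arrays, with overlapping groups and a difference of -0.16 (-0.37 to 0.05).

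Within the Klf5-deleted group most receptor genes ranked the pools in one order. Klf5-deleted 1 was the highest and Klf5-deleted 2 the lowest of the 3 arrays for 8 of the 11 plexin and neuropilin genes, or 72.7%. The share was 20.0% of the semaphorins and 19.7% of all genes, but also 43.8% of the netrin and slit genes, 43.5% of the intracellular effectors and 38.1% of the ephrin and Eph genes, so other lists held it more often than all genes did too. Plxnb2 gives an example, at 12.69, 12.34 and 12.54, and so does Plxna3, at 10.14, 9.80 and 10.11. The mean level of the 11 genes was 10.64, 10.47 and 10.56 on these arrays and 10.45, 10.48 and 10.56 on the controls, so the spread among the Klf5-deleted pools was wider than the gap between the genotype means. The pattern was noticed after the values were seen and was not tested.

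**Figure D3:**
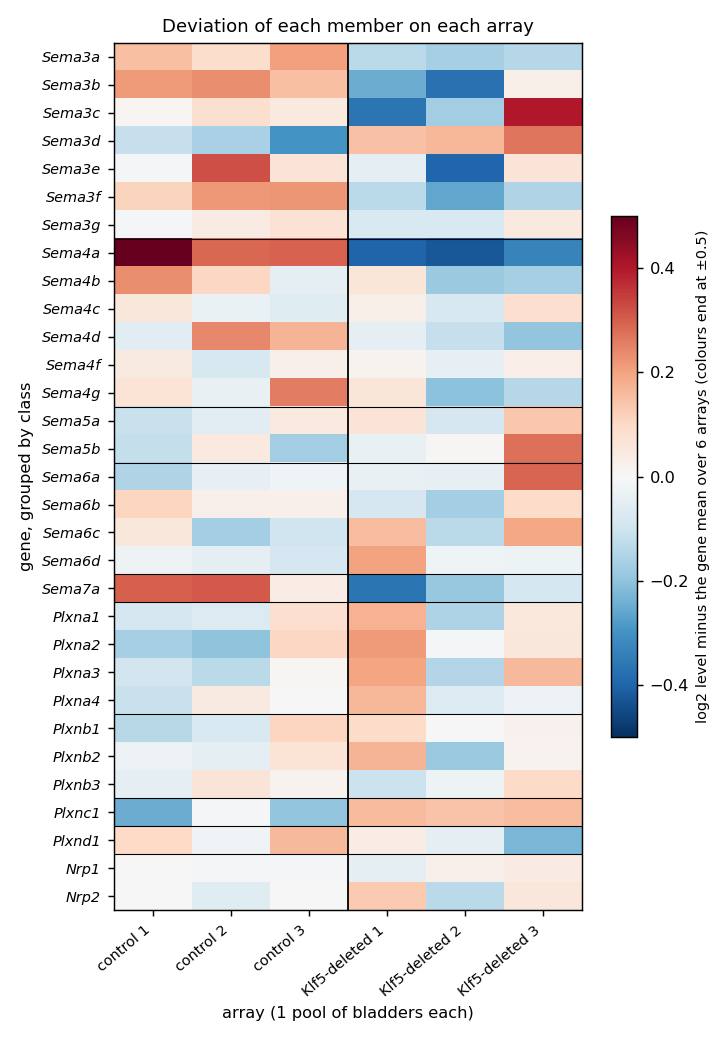
Log2 level of each of the 31 genes on each array, minus the gene's mean over the 6 arrays; horizontal lines part the classes and the vertical line the genotypes. Sema4a, Sema3f, Sema3a and Sema3d change colour at the genotype line, whereas most plexins are highest on Klf5-deleted 1 and lower on Klf5-deleted 2.

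The genes that carry or share the family's signals were read from lists of pathway genes. Over these lists and the netrin and ephrin families, 2.47% of 81 genes passed, near the 1.98% of all genes, and 30.9% had an unadjusted p under 0.05, beside 14.4% of all genes. None of 23 measured intracellular effectors passed, where 6 had an unadjusted p under 0.05, or 26.1%, and the median difference was 0.0183. The largest differences were those of Dpysl5 and Dpysl3, collapsin response mediators that act on microtubules downstream of class 3 signals, at 0.48 (SE 0.17, adjusted p = 0.27 by limma) and 0.41 (SE 0.10, adjusted p = 0.118 by limma). Dpysl3 read 11.35 to 11.43 on Klf5-deleted and 10.78 to 11.19 on control arrays, without overlap, whereas the Dpysl5 groups overlapped. The lowest adjusted p among the intracellular effectors was 0.0625 by limma, for Dpysl4, another collapsin response mediator. It was higher by 0.36, without overlap of the groups. Crmp1 and Dpysl2, of the same gene family, differed by 0.09 and -0.00013 with overlapping groups. None of 15 co-receptors and partners passed and 4 had an unadjusted p under 0.05, or 26.7%. The groups did not overlap for 5 of the 15, or 33.3%, beside 20.5% of all genes, and all 5 were lower. Chl1, an adhesion molecule of neurons, was higher by 0.64 (SE 0.27, adjusted p = 0.349 by limma), with Klf5-deleted 3 within the controls. Without that array it was higher by 0.98 and passed (adjusted p = 0.0285 by limma). It passed in no other alternative fit, where the adjusted p by limma was 0.223 to 0.647. The receptor kinase gene Met was at -0.37 (SE 0.10, adjusted p = 0.127 by limma). None of 6 other neuropilin ligands passed and 3 had an unadjusted p under 0.05, with Tgfb1 at -0.27, the placental growth factor gene Pgf at 0.25 and Vegfa at -0.02.

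The other guidance families were measured beside it. None of 16 netrin and slit genes passed and 4 had an unadjusted p under 0.05, or 25.0%, beside 14.4% of all genes; Ntn1, a secreted netrin, was at -0.63 (SE 0.14, adjusted p = 0.0761 by limma), and the netrin receptor gene Unc5c at 0.31 (adjusted p = 0.213 by limma). Of 21 ephrin and Eph genes, 1 fell and 1 rose, or 9.52%, beside 1.98% of all genes, and 8 had an unadjusted p under 0.05, or 38.1%. The groups did not overlap for 7 of these 21, or 33.3%, and for 3 of the 16 netrin and slit genes, or 18.8%, beside 20.5% of all genes. The receptor gene Epha8 fell by 0.59 (adjusted p = 0.0236 by limma) and the ligand gene Efna3 rose by 0.36 (adjusted p = 0.0336 by limma). Efna3 missed the threshold in each of the 6 fits that omitted an array, and Epha8 passed in the fit without Klf5-deleted 2 alone. Median differences were 0.0729 for netrins and slits and 0.0367 for ephrins, beside -0.00993 for all genes. No test set the families against each other.

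**Figure D4:**
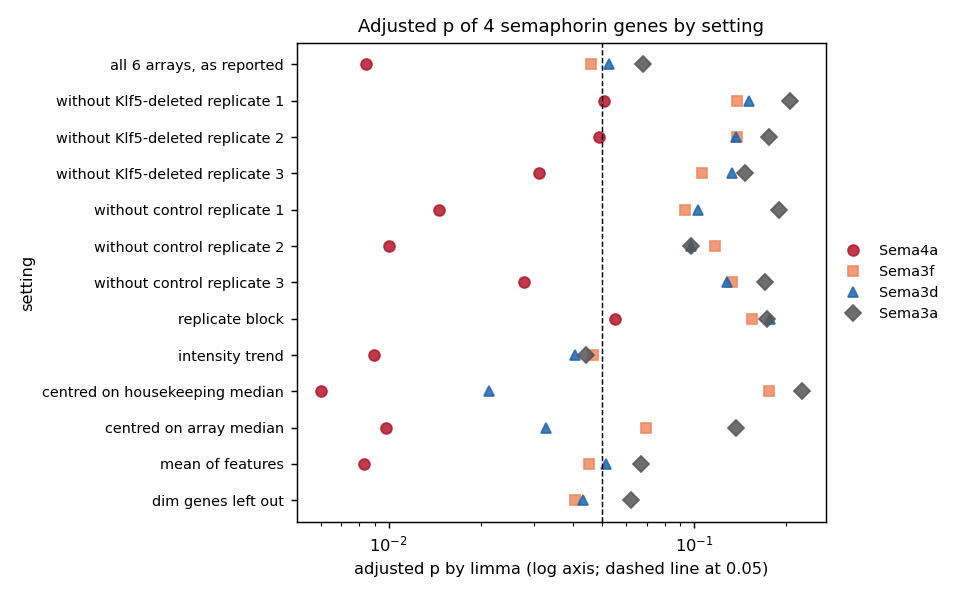
Adjusted p by limma (log axis) of Sema4a, Sema3f, Sema3d and Sema3a under the reported fit and 12 alternatives; the dashed line marks 0.05. Sema4a stays near or below the line throughout, the others lie to its right whenever an array is left out, and Sema4a has no point without dim genes because its mean level was below the cut.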

How the data were processed

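The authors deposited log2 expression values made with RMA (background correction, quantile normalization between arrays and probe summary), per the submitters' processing notes; the log2 scale was read off the values, which span 3.24 to 14.6. For RMA's version and the genome build, the record is: not given in the sources used here. The table held 35557 features, of which 21789 had a single gene symbol in the platform annotation; the feature with the highest mean stood for each of 19938 genes. All 31 members matched RefSeq by Entrez identifier. Klf5-deleted was compared with control by limma 3.58.1 in R 4.3.3 (two-sided; lmFit and eBayes with no trend), p-values being adjusted by Benjamini-Hochberg over all 19938 genes and a threshold of 0.05; the procedure was tested on simulated data. Intervals are limma's 95% confidence intervals, and group errors are SDs of 3 arrays. Levels of different genes were not compared, because probes differ in brightness, and background calls were not used here. An exact permutation test of 3 against 3 cannot go below 0.1, so limma's shared spread carries the single-gene tests. The named genes were all members, Klf5, and of each pathway list the genes past the threshold (at most 4) or else the 2 largest differences. Vegfa, Itgb1, Itga1, Dpysl4, Dpysl2 and Crmp1 were added after their values were seen. Members and lists were chosen with earlier results of these data known. Same-numbered pools did not deviate together (correlations 0.0092, 0.0313 and 0.0787), so no block was used. The alternatives left out each array, added the replicate number as a block or an intensity trend, centred arrays on 8 housekeeping genes or on the array median, averaged features, or left out genes below the median level.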

Additional observations from a re-analysis of the deposited data

How the results depend on the processing

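Over the 31 members and 12 alternatives, 329 of 364 values kept their direction and their side of the threshold, 11 lost it, 6 gained it and 18 changed sign. The sign changes came from 10 members whose reported difference was at most 0.0939 in size. Members past the threshold numbered 0 to 2 when 1 array was left out (none without Klf5-deleted 1), 0 with the replicate number as a block and 4 with an intensity trend (Sema3a, Sema3d, Sema3f and Sema4a). Under the replicate block Sema4a and Sema3f kept their differences with adjusted p of 0.0549 and 0.154 by limma; same-numbered pools did not all correlate best with each other. Genes past the threshold were 141 to 349 with 1 array left out, 110 with the replicate block and 239 without dim genes, against 395. Of these 124 to 285, 105 and 171 were lower; 17 to 64 were higher with 1 array left out, 5 with the block, 172 with housekeeping and 116 with array median centring. Calls in the 5 pathway lists numbered 0 to 2 with 1 array left out, 0 with the block and 1 without dim genes, against 2. The causes were not tested. Leaving out 1 array turned the sign of Nrp1 (-0.0077 to 0.0386), Nrp2 (-0.0197 to 0.113), Plxna1 (-0.0288 to 0.135), Plxna4 (-0.0261 to 0.0919), Plxnb2 (-0.0809 to 0.0954), Plxnb3 (-0.0791 to 0.0209), Sema3c (-0.317 to 0.0661), Sema4c (-0.0143 to 0.069) and Sema4f (-0.0305 to 0.031). Plxnb3 turned to 0.0604 and 0.0147 with housekeeping and array median centring, and Sema3g to 0.0157 with the former. The filter on dim genes left 23 of the 31 members and removed Sema4a. The number of arrays limits the precision.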
